A study of Homo sapiens with 16 samples.

Results

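CDKN1A encodes p21, an inhibitor of cyclin-dependent kinases that stops cells before DNA replication. The sites described here are all the p53 and CTCF peaks within 100 kb of its gene body in MCF10A cells with and without an HRas oncogene. Peaks that overlapped by at least 1 bp between libraries of a factor were joined into a site. The window held 43 of the 76863 peaks of the 8 lists. These formed 7 of the 2980 p53 sites and 8 of the 29064 CTCF sites of the series. Of the 7 p53 sites, 3 were called in all 4 p53 libraries, against 11.1% of all p53 sites. Of the 8 CTCF sites, 2 were called in all 4 CTCF libraries, against 27.5% of all CTCF sites.

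ChIP-seq, in which DNA cross-linked to a protein is pulled down with an antibody and sequenced, was performed for p53 and CTCF in 2 cell types with 2 replicates each. MCF10A is a non-tumorigenic human mammary epithelial line, labelled Parental. G12V cells are MCF10A cells given HRas with the G12V change by viral transduction of an expression vector with hygromycin resistance, labelled H-RAS Gv12, so the oncogene was overexpressed rather than mutated in place. Both cell types were exposed to nutlin before fixation for p53, and there is no p53 library without it; nutlin treatment is not stated for the CTCF samples. In the p53 list of G12V replicate 1 the peaks are named with "old". Whether this library was made apart from the others is not stated in the labels.

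p53 binds DNA as a tetramer to a pair of 10-bp half-sites, and each half-site holds a core C and G. Nutlin blocks MDM2, the ubiquitin ligase that keeps p53 low, so p53 accumulates without DNA damage. CDKN1A is the classic p53 target behind p53-dependent cell cycle arrest, and its promoter is known for a distal and a proximal p53 response element. CTCF, through its zinc fingers, holds the anchors of chromatin loops and marks insulators and domain borders.

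CDKN1A lies on the plus strand of chromosome 6 at 36644237 to 36655114 (hg19, GENCODE release 44 mapped to GRCh37). The start of its canonical transcript, at 36646491, is 2254 bp inside the annotated gene, which begins with a longer transcript. Each site is named by the distance in kb of the summit of its strongest peak from that canonical start. A minus sign marks the 5′ side. The 7 p53 sites were at -70.4, -11.5, -2.3, -1.4, -0.2, +0.4 and +3.9 kb. The 8 CTCF sites were at -63.4, -55.1, +1.9, +23.1, +46.1, +80.6, +87.6 and +104.3 kb.

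The sequences below are the plus strand of GRCh37 around the p53 motif within 150 bp around the summit of 3 p53 sites, and around the best half-site of the -1.4 kb site, which had no mismatch. They show what distinguishes the sites by sequence. Capitals mark the motif. A motif was a pair of adjacent half-sites (3 purines, C, 2 bases of A or T, G, 3 pyrimidines) with every core C and G intact and at most 3 mismatches elsewhere.
-11.5 kb, chr6:36635015-36635074, between genes, 1 mismatch: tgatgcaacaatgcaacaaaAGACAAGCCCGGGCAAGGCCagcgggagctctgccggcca
-2.3 kb, chr6:36644221-36644250, across the 5′ end of the annotated gene, 2 mismatches: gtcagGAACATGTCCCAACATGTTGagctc
-1.4 kb, chr6:36645093-36645152, intron of the longer transcript, 1 half-site: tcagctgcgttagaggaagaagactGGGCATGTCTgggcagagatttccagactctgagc
+3.9 kb, chr6:36650415-36650444, at the 5′ end of an exon outside the canonical transcript, 3 mismatches: agaaaCTGCAAGTTGGGACTTGTCCctagg

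The -0.2 and +0.4 kb sites held no such motif. Of all p53 sites of the series, 70.4% held a motif in the same window, as did 88.9% of the sites called in all 4 libraries and 0.471% of protein-coding promoters of the same length. The distance from the motif centre to the summit of the strongest peak was 6 bp at the -2.3 kb site and 7 bp at the -11.5 kb site. It was 25 bp at +3.9 kb. The half-site of the -1.4 kb site lay 30 bp from the summit. None of the 7 windows held the AP-1 motif (TGACTCA or TGAGTCA, either strand), which was found at 6.61% of all p53 sites and 1.63% of promoters.

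The p53 sites lay mostly around the 5′ part of the gene, with the -11.5 and -70.4 kb sites upstream of it between genes. Of the 7 p53 sites, 6 had their summits within 15.4 kb and 5 within 6.17 kb. The -2.3 and -1.4 kb summits were 863 bp apart. The -70.4 kb site was nearer to the start of SRSF3, a splicing factor gene, at 13916 bp. No p53 peak was called in the 104.7 kb from the +3.9 kb summit to the end of the window, which covers RAB44 and part of CPNE5.

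**Figure D1:**
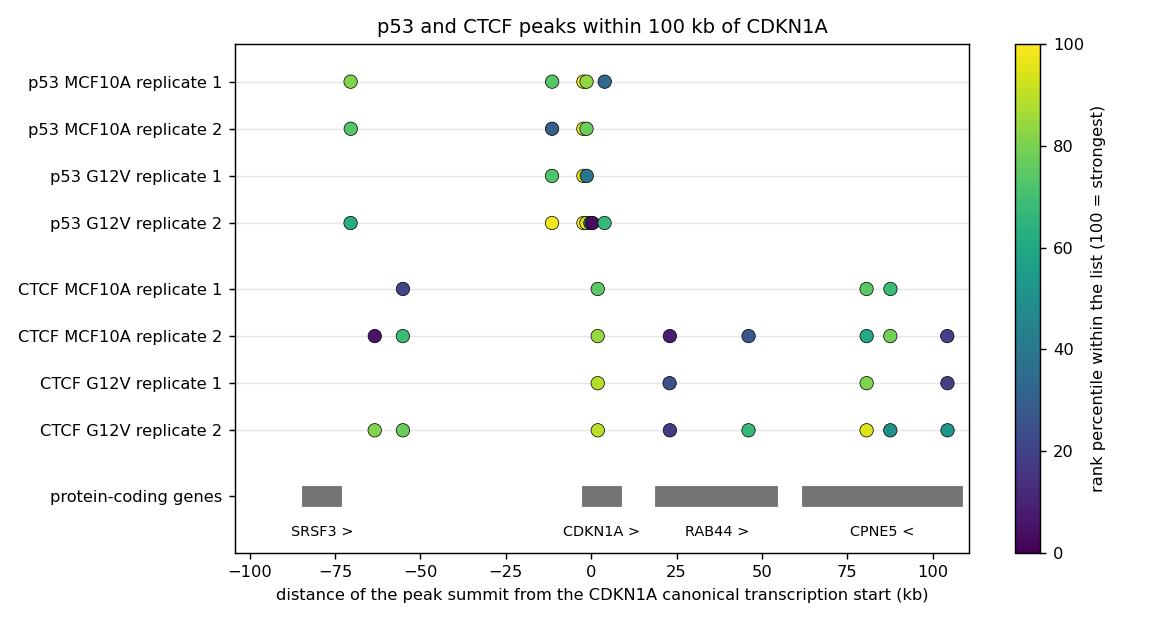
Peak summits within 100 kb of CDKN1A by library (rows) against the distance from the canonical transcription start in kb, coloured by rank percentile within the list (100 is the strongest peak), with the protein-coding genes below and their strand as an arrowhead. The p53 peaks lie near the 5′ part of the gene apart from the upstream sites at -11.5 and -70.4 kb, and the CTCF peaks spread on both sides from -63.4 to +104.3 kb.

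Peak strength is given in 4 forms. Fold enrichment, as deposited by the authors, compares the pileup of fragments at the summit with the local background. The rank is the place of a peak in its own list by −log10 q, with 1 the strongest, and the rank percentile puts the strongest peak of any list at 100. Fragments at the summit were solved from fold and p-value. The p53 lists held 1718, 885, 477 and 2619 peaks at recovered depths of 21.4, 20.1, 9.26 and 33.2 M reads (M is the SI prefix mega). The CTCF lists held 11346, 20136, 12004 and 27678 peaks at 18.6, 11.5, 13.6 and 11.4 M reads. Series of 4 values are in the order MCF10A replicates 1 and 2, then G12V replicates 1 and 2.

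The -2.3 kb site, at the distal response element, was the strongest p53 site of the locus in every library. In MCF10A it ranked 13th and 27th, and in G12V 11th and 3rd. Its fold enrichment was 37.3, 19.2, 26.1 and 76.8, and its summits held 112, 55, 69 and 275 fragments. The summits of the 4 libraries fell within 25 bp of each other. By mean rank percentile (98.5) it was 7th of the 332 p53 sites called in all 4 libraries, whose median was 74.6.

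The rank percentile of this site was 98.2 ± 1.58 in MCF10A and 98.9 ± 1.43 in G12V (SD, n = 2). The difference of 0.73 points was smaller than either SD (exact permutation test, two-sided, p = 0.667; with 2 libraries against 2 the smallest p this test can give is 0.333). The direction of this difference turned without MCF10A replicate 2 (-0.39 points) and without G12V replicate 2 (-0.28 points). The rank percentile near its ceiling leaves little room for a change, so fold enrichment was compared too.

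The -1.4 kb site, at the proximal response element, was also called in every library. In MCF10A it ranked 286th and 202nd, and in G12V 294th and 117th. Its fold enrichment was 16.7, 10.6, 8.27 and 33.0, with 42, 30, 17 and 136 fragments. The G12V libraries held both the lowest and the highest value, so the groups overlapped. Its rank percentile was 80.3 ± 4.33 in MCF10A and 67.1 ± 40.3 in G12V (SD, n = 2; exact permutation test, two-sided, p = 1). The percentile depends on list length: rank 286 of 1718 in MCF10A replicate 1 gave 83.4, and rank 294 of 477 in G12V replicate 1 gave 38.6. In G12V replicate 2 its peak was the widest p53 peak of the locus, at 950 bp against 793 bp at -2.3 kb. In the other libraries the -2.3 kb peak was the wider of the pair. In MCF10A it spanned 600 and 347 bp against 314 and 252 bp at -1.4 kb. In G12V replicate 1 it spanned 686 bp against 596 bp. The summits of the -1.4 kb site spread over 113 bp.

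The -11.5 kb site, with the closest match to the motif, lay 9199 bp before the annotated gene. In MCF10A it ranked 452nd and 621st, and in G12V 134th and 47th. Its fold enrichment was 14.0, 5.68, 12.7 and 36.0, with 31, 21, 24 and 198 fragments. The groups overlapped in fold before centring, since G12V replicate 1 was below MCF10A replicate 1. They also overlapped in rank percentile (51.8 ± 31.0 in MCF10A and 85.2 ± 18.5 in G12V, SD, n = 2; exact permutation test, two-sided, p = 0.667). In MCF10A replicate 2 the local background at this site was 3.41 times the genome-wide rate, against 1.10, 1.01 and 1.88 times in the other libraries.

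**Figure D2:**
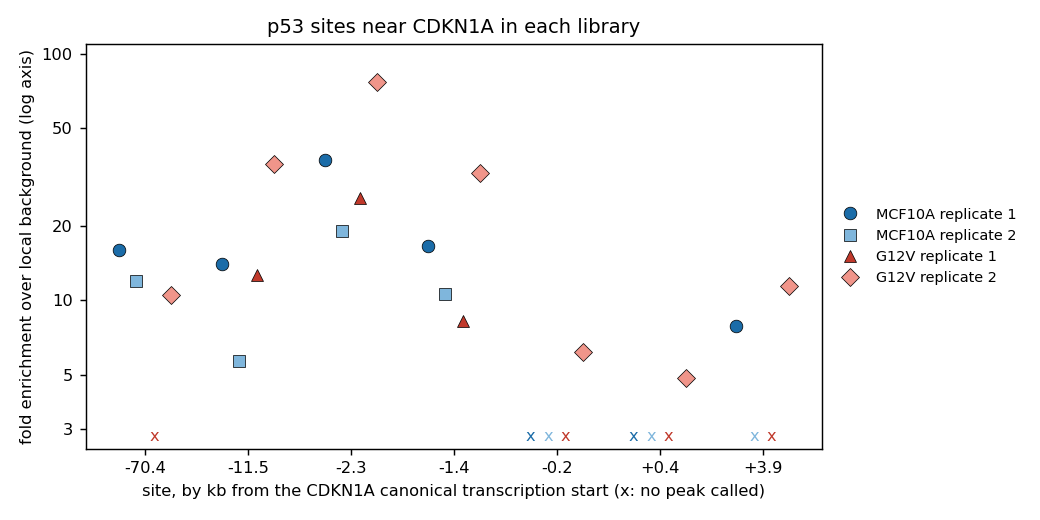
Fold enrichment over local background (log axis) of each p53 site near CDKN1A, named by kb from the canonical transcription start, with 1 point per library and an x where no peak was called. The -2.3 kb site is the highest in every library, and G12V replicate 2, the deepest library, is the highest of the 4 at every site except -70.4 kb.

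Libraries differed in overall enrichment, with a median fold over the 332 shared sites of 17.9, 11.1, 9.41 and 24.9. The log2 fold of each library was therefore centred on its own median before G12V and MCF10A were compared with limma across all 332 sites. On this scale the -11.5 kb site was higher in G12V by 1.14 (SE 0.43), the -2.3 kb site by 0.62 (SE 0.43) and the -1.4 kb site by 0.19 (SE 0.43). The Benjamini-Hochberg adjusted p from limma was 0.105, 0.445 and 0.876, so none of the 3 sites passed the threshold of 0.05. At this threshold 1.51% of the 332 sites were higher in G12V (5 sites) and 2.11% were lower (7 sites). The difference at the -11.5 kb site was larger than or equal to that of 96.4% of the tested sites. The SE was the same at the 3 sites because limma pooled the variance over the 332 sites. It does not measure the spread of a single site.

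After centring, both G12V libraries were above both MCF10A libraries at the -11.5 kb site (-0.35 and -0.97 in MCF10A, 0.44 and 0.53 in G12V). The same held at the -2.3 kb site (1.06 and 0.79 in MCF10A, 1.47 and 1.63 in G12V). Of all tested sites, 26.5% were separated in this direction and 20.8% in the other. At the -11.5 kb site the adjusted p from limma ranged from 0.022 to 0.993 over 9 other settings. It was 0.022 when log2 ranks were compared and 0.044 when the recovered fragments were compared. The ranks came from lists of unequal length. In rank percentile, which also depends on list length, the groups overlapped. The direction was the same in each setting. In fragments per M reads the -11.5 kb site stood at 1.45, 1.04, 2.59 and 5.97. On that scale both G12V libraries were above both MCF10A libraries at 62.3% of the 332 sites and below at 1.20%. The median over these sites was 2.24, 1.24, 2.48 and 3.50. With 2 libraries per group, a shift with cell type cannot be told apart from the enrichment of single libraries.

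The ratio of a site to the -2.3 kb site of the same library does not depend on the depth or overall enrichment of the library in the same way. The fold enrichment of the -11.5 kb site was 37.5% and 29.6% of that of the -2.3 kb site in MCF10A and 48.8% and 46.8% in G12V. In MCF10A the ratio of the -1.4 kb site was 44.7% and 55.4%, and in G12V it was 31.7% and 43.0%. These ranges did not overlap between cell types, in opposite directions, and were not tested. Of the 331 other shared sites, 4.53% had a higher ratio in both G12V than in both MCF10A libraries, as at -11.5 kb, and 54.4% a lower one, as at -1.4 kb. In summit fragments both ratios overlapped between cell types. The -11.5 kb site stood at 27.7% and 38.2% of the -2.3 kb site in MCF10A and at 34.8% and 72.0% in G12V, and the -1.4 kb site at 37.5% and 54.5% in MCF10A and at 24.6% and 49.5% in G12V. Of these 2 sites, the -1.4 kb site had the higher fold, and more fragments, in both MCF10A libraries and the -11.5 kb site in both G12V libraries. This order was not tested. How often other pairs of shared sites changed order in this way was not counted.

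**Figure D3:**
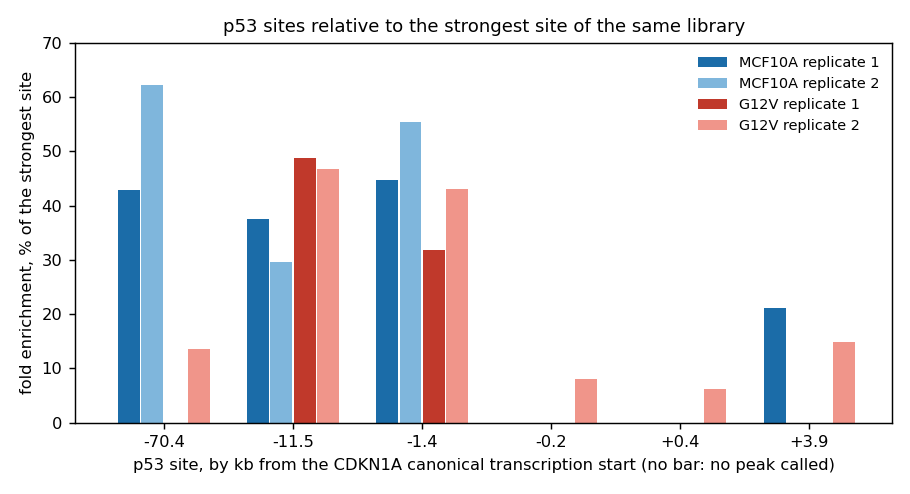
Fold enrichment of the other p53 sites as a percentage of the -2.3 kb site of the same library, 1 bar per library. Bars at -11.5 kb are higher in both G12V libraries (46.8% and 48.8%) than in both MCF10A libraries, a separation that was not present in summit fragments, and the -70.4 kb bar is 13.6% in G12V replicate 2 against 42.8% and 62.3% in MCF10A.

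The -70.4 kb site, 68182 bp before the annotated gene, was called in both MCF10A libraries and in G12V replicate 2. In MCF10A its fold enrichment was 16.0 and 11.96, and in G12V replicate 2 it was 10.5, with 38, 23 and 44 fragments, and its ranks were 334, 239 and 980. In fragments per M reads it was alike in the 3 libraries (1.78, 1.14 and 1.33), whereas the -2.3 kb site of the same libraries stood at 5.24, 2.73 and 8.29. A lower ratio to the -2.3 kb site in both G12V than in both MCF10A libraries occurred at 54.4% of the 331 other shared sites. The ratio of the -70.4 kb site was 42.8% and 62.3% in MCF10A and 13.6% in G12V replicate 2. Without G12V replicate 1, in a fit over the 751 sites called in the other 3 libraries, its centred log2 fold was lower in G12V by a difference of -0.85 (SE 0.50; adjusted p = 0.334, limma). The single G12V library in that fit is assumed to vary like the others.

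G12V replicate 1, the shallowest p53 library, had no peak at -70.4 kb. Scaled from the 3 libraries that called it, with the overall enrichment of each library taken into account, 8.72 to 21.2 fragments were expected there. At least 10 were needed at the local background. By counting error alone, 62.4% of libraries would stay under that number at the lower expectation and 0.251% at the upper one. Across the series 14.1% of p53 sites were called in all libraries but this one.

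Sites nearer the canonical start were weak. The -0.2 kb site was called in G12V replicate 2 only, with a rank of 1747, a fold of 6.20 and 33 fragments. It lies 5′ of the first exon of the canonical transcript, in an exon of DINOL, a long noncoding RNA gene on the opposite strand. The +0.4 kb site, in the first intron of the canonical transcript, was called in G12V replicate 2 only, with a rank of 2535 of 2619, a fold of 4.84 and 18 fragments. Sites called in this library alone made up 38.5% of all p53 sites. With the depth and overall enrichment of the other libraries taken into account, 3.57 to 13.7 fragments were expected at these sites, where 8 to 12 were needed. Only at -0.2 kb in MCF10A replicate 1 was the expectation above the need (13.7 against 11). By counting error alone, 20.0% of libraries would stay under that need. The lack of a peak at these sites is not shown to be a difference between cell types.

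The +3.9 kb site, in an intron of the canonical transcript, was called in 1 library of each cell type. In MCF10A replicate 1 its rank was 1144, its fold 7.85 and its summit held 16 fragments. In G12V replicate 2 its rank was 868, its fold 11.4 and its summit held 48 fragments. MCF10A replicate 2, without a peak, was expected to hold 8.33 to 10.3 fragments there and needed 8. G12V replicate 1, also without a peak, was expected to hold 7.67 to 9.52 and needed 10.

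Counted by library, the window held 5 and 4 p53 sites in MCF10A and 3 and 7 in G12V. These numbers followed the length of the lists, and G12V held both the lowest and the highest (4.5 ± 0.71 against 5 ± 2.8, SD, n = 2; exact permutation test, two-sided, p = 1). With every p53 list shortened to its strongest 477 peaks, 4 sites were left, those at -70.4, -11.5, -2.3 and -1.4 kb. Of these, the -2.3 and -1.4 kb sites stayed in all 4 lists. The -11.5 kb site stayed in the lists of MCF10A replicate 1 and both G12V replicates, but not of MCF10A replicate 2. The -70.4 kb site then appeared in both MCF10A lists and neither G12V list, as did 11.3% of the 849 sites of the shortened lists, against 9.78% in both G12V lists and neither MCF10A list. Over all p53 sites and full lists, 2.18% were called in both MCF10A and no G12V library and 1.41% the other way. In the full lists none of the 7 sites fell in either class.

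**Figure D4:**
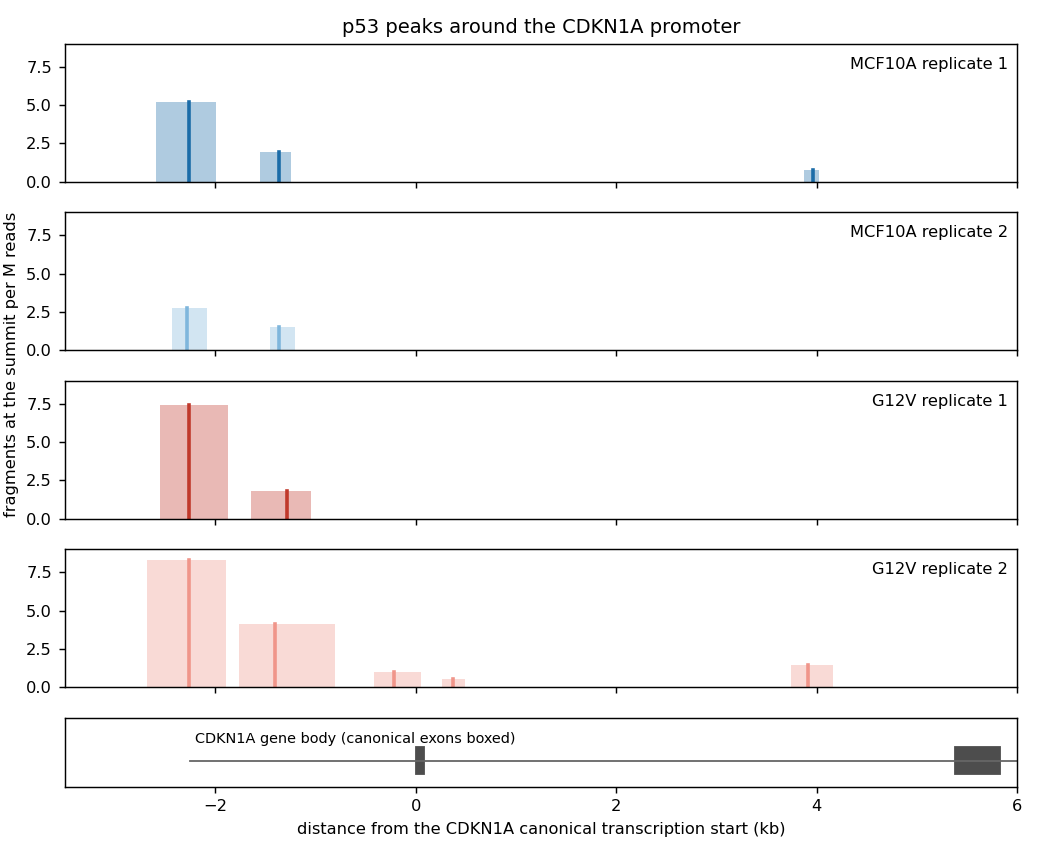
p53 peaks within 6 kb of the canonical start of CDKN1A (x axis, kb), 1 panel per library; boxes span the called peaks, and box height and summit line give the fragments at the summit per M reads. The -2.3 and -1.4 kb peaks appear in every panel, and the peaks at -0.2 and +0.4 kb appear in G12V replicate 2 only, where they reach 0.994 and 0.542.

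Few genes had as many p53 sites nearby. Within 100 kb of the gene body, 28.7% of the 20175 protein-coding genes had at least 1 p53 site and 3.94% had a site called in all 4 libraries. Only 0.0248% (5 genes) had 7 or more: TAB3 with 8, and CDKN1A, GK, RAB44 and SRSF3 with 7 each. RAB44 and SRSF3 are neighbours whose windows hold the same 7 sites. The windows of TAB3 and GK held no site called in all 4 libraries, against 3 at CDKN1A. Only 0.0198% of genes (4 genes) had 3 or more such sites: CDKN1A and its neighbours SRSF3, RAB44 and CPNE5, which share them.

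A list of 22 other p53 target genes was set beside CDKN1A. All 22 had a p53 site within 100 kb, 11 had a site called in all 4 libraries, and the median number of sites was 1. The highest was 4, at SESN2, which encodes a stress-induced regulator of growth signalling. By the mean rank percentile of the best shared site, the first were MDM2 (91.8), the nuclease gene AEN (89.6), the kinase genes PLK2 (87.9) and PLK3 (85.6), and the DNA repair gene DDB2 (84.6), against 98.5 at CDKN1A. Of 17 genes for binding partners of p21 and for the G1/S step it controls, 8 had a p53 site and 1 had a site called in all 4 libraries. That gene was PCNA, the replication clamp that p21 binds (56.6).

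The ranks of the -2.3 kb site across the 4 p53 libraries were compared with those of the best shared site of 793 other genes, by the mean absolute difference in log2 rank. CPNE5, RAB44 and SRSF3 had a difference of 0 because they share the site. The next were CYP11B1 and CYP11B2, genes of steroid synthesis on chromosome 8, with a difference of 0.81. Their site ranked 24th, 17th, 9th and 8th, and 8 more genes share it. The 793 genes had 262 different best sites, so genes in this comparison are not independent.

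CTCF sites framed the gene on both sides. Upstream lay the -63.4 and -55.1 kb sites, within the gene the +1.9 kb site, in RAB44 the +23.1 and +46.1 kb sites, and in CPNE5 the +80.6, +87.6 and +104.3 kb sites. No CTCF site overlapped a p53 site. The nearest pair was the +0.4 kb p53 and the +1.9 kb CTCF site, and 5 of the 7 p53 sites lay in the 57.1 kb between the -55.1 and +1.9 kb CTCF summits. CDKN1A had 8 CTCF sites within 100 kb, where the median protein-coding gene had 4 and 17.0% had 8 or more.

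The CTCF motif was searched as a 12-bp core on either strand with at most 1 mismatch. The 3 sites with a match, and the strongest site of the locus at its best place, are shown from the plus strand with the core in capitals.
-63.4 kb, chr6:36583086-36583135, plus strand, 1 mismatch: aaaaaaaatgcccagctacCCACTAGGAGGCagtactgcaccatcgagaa
+1.9 kb, chr6:36648372-36648421, minus strand, 2 mismatches: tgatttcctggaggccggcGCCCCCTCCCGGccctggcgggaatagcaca
+46.1 kb, chr6:36692548-36692597, minus strand, 1 mismatch: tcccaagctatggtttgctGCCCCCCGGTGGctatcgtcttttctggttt
+80.6 kb, chr6:36727102-36727151, minus strand, 1 mismatch: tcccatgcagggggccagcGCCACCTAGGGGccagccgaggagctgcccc

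A match within 150 bp around the summit was thus found at 3 of 8 sites, against 52.3% of all CTCF sites and 2.15% of promoters. The upstream match lay on the plus strand and both downstream matches on the minus strand. With 2 mismatches allowed all 8 sites matched, and with none allowed no site did. The best matches with 2 mismatches lay on the plus strand at -55.1 and +87.6 kb. At +1.9, +23.1 and +104.3 kb they lay on the minus strand, so not all downstream sites shared a strand.

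The +1.9 kb site, in the first intron of the canonical transcript and in an exon of another CDKN1A transcript, was the strongest CTCF site by rank over the 4 libraries. In MCF10A it ranked 2915th and 3076th, and in G12V 1343rd and 2898th, in lists of 11346 to 27678 peaks. Its fold enrichment was 8.68, 11.4, 9.94 and 17.5, with 33, 47, 29 and 55 fragments. Its rank percentiles were 74.3, 84.7, 88.8 and 89.5. The groups did not overlap, with a difference of 9.65 points (exact permutation test, two-sided, p = 0.333, the smallest it can give). Of the 8006 CTCF sites called in all 4 libraries, 30.5% did not overlap between the cell types, with G12V higher at 1680 and lower at 760. The difference was 4.45 points without MCF10A replicate 1 and 14.9 without MCF10A replicate 2.

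The +80.6 kb site, in an intron of CPNE5 (a calcium-dependent membrane-binding protein), was the other site called in all 4 CTCF libraries. Its ranks were 2857, 7990, 2307 and 1433. Its fold enrichment was 8.11, 7.62, 8.95 and 19.7, with 36, 39, 26 and 62 fragments. The rank percentile was 67.6 ± 10.3 in MCF10A and 87.8 ± 9.93 in G12V (SD, n = 2), and the groups did not overlap (exact permutation test, two-sided, p = 0.333).

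In limma across the 8006 shared CTCF sites, the centred log2 fold was higher in G12V by 0.20 (SE 0.46) at the +1.9 kb site and by 0.56 (SE 0.46) at the +80.6 kb site. Neither passed (adjusted p = 0.994 for both), and 0% of the 8006 sites passed in either direction, with 400 sites below an unadjusted p of 0.05. When recovered fragments were compared in place of fold, 11 sites passed, none of them in this window.

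**Figure D5:**
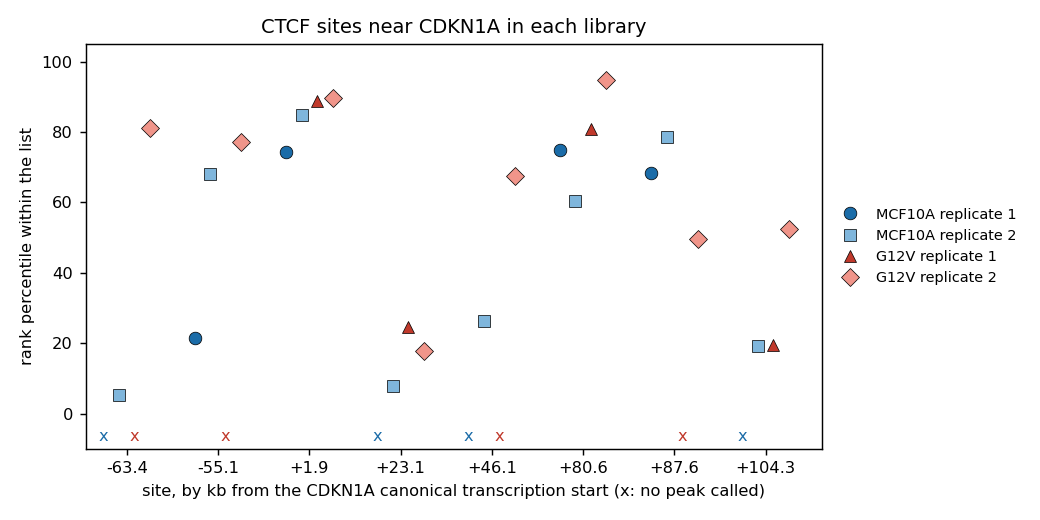
Rank percentile within the list of each CTCF site near CDKN1A, named by kb from the canonical transcription start, with 1 point per library and an x where no peak was called. The +1.9 and +80.6 kb sites have a point in all 4 libraries, with both G12V libraries above both MCF10A libraries.

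The other 6 CTCF sites were missing from at least 1 of the replicate 1 libraries and were called in both replicate 2 libraries. Of all CTCF sites, 19.1% were called in the replicate 2 libraries only, as at -63.4 and +46.1 kb, and 9.73% were missing from G12V replicate 1 only, as at -55.1 and +87.6 kb. At -63.4 kb the fold was 3.97 in MCF10A replicate 2, where the local background was 5.44 times the genome-wide rate, and 18.2 in G12V replicate 2. At -55.1 kb it was 4.48 and 9.28 in MCF10A and 14.4 in G12V replicate 2. At +46.1 kb it was 6.19 in MCF10A replicate 2 and 14.6 in G12V replicate 2. At these 3 sites G12V replicate 2 had the highest fold, but its median fold over the 8006 shared CTCF sites was also the highest (14.7, against 7.45 and 11.1 in MCF10A and 7.46 in G12V replicate 1). Its folds at -55.1 and +46.1 kb were below that median.

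At +87.6 kb the order was the reverse, with a fold of 9.13 and 14.3 in MCF10A and 10.3 in G12V replicate 2. Its rank percentile was 68.3 and 78.6 in MCF10A and 49.7 in G12V replicate 2. At +23.1 kb the fold was 4.77 in MCF10A replicate 2 and 6.94 and 7.10 in G12V. At +104.3 kb it was 7.23 in MCF10A replicate 2 and 5.63 and 10.6 in G12V. The +23.1 and +104.3 kb sites were missing from MCF10A replicate 1 only. Of the 29064 CTCF sites, 10594 were called in every library other than that one, and 8006 of these were called in it too. No member was called in all libraries of one cell type and none of the other, a class that held 0.261% of CTCF sites for MCF10A and 3.33% for G12V.

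The median fragments per M reads over the shared CTCF sites were 1.61, 3.13, 1.54 and 4.21, so enrichment was higher in replicate 2 of both cell types. The window held 4 CTCF sites in each replicate 1 library and 8 in each replicate 2 library (6 ± 2.8 in both cell types, SD, n = 2; exact permutation test, two-sided, p = 1). In the missing libraries 10.6 to 25.0 fragments were expected and 11 to 24 were needed at the local background. In G12V replicate 1 expectations exceeded needs at -55.1 kb (19.7 to 23.1 against 16) and +87.6 kb (14 to 18.9 against 11). At +46.1 kb they did so in MCF10A replicate 1 (20.8 to 21.9 against 17) and G12V replicate 1 (14.6 to 15.3 against 13). By counting error alone, 4.99% to 17.3% of libraries would stay under the need at -55.1 kb and 1.93% to 17.6% at +87.6 kb. At -63.4, +23.1 and +104.3 kb the expected range included the need. Why these peaks were missing was not tested. The 4 CTCF lists were also shortened to their strongest 11346 peaks. All 8 sites were then still called in at least 1 list, and the +1.9 and +80.6 kb sites in all 4.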

How the data were processed

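MCF10A and G12V cells were profiled by ChIP-seq for p53 (DO-1 antibody) and CTCF, with 2 replicates each, and the 8 input libraries entered only through the peak caller. The authors aligned reads to hg19 with Bowtie, kept unique alignments, and called peaks with MACS2 against input, separately for each deposited list. The versions used for ChIP-seq are not given in the sources used here. The deposited columns are a score, which was not used, a fold enrichment (a ratio), a summit position, and −log10 values of the p-value and q-value, all read as the narrowPeak format defines them.

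Groups and replicate numbers came from the titles. The study names biological replicates. The members and gene lists were chosen with earlier results of these data known. Sites joined peaks of 1 factor with 1 bp or more in common, and sites within 100 kb of the CDKN1A gene body (GENCODE release 44 on GRCh37) were kept. Ranks used −log10 q, with ties by p, fold and position. The sequence at 1 p53 site is not reported here. Summit fragments, background and depth were solved from fold and −log10 p under the caller's Poisson model, and a solution was found for 100% of peaks. This recovery was tested on simulated data. The depths count reads left after duplicate removal by the caller and assume the human genome size that the caller takes by default.

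limma 3.58.1 (R 4.3.3) was fitted to log2 fold, centred on the median of each library, over the sites called in all 4 libraries of a factor (332 for p53 and 8006 for CTCF), with Benjamini-Hochberg adjustment, and was tested on simulated data. Single values were compared by exact permutation over 6 assignments. Gene neighbourhoods used the 20175 protein-coding genes. The genes named were the neighbours of the sites, at most 5 of each list by rank percentile of the best shared p53 site, and the 5 genes closest to CDKN1A by log2 rank. A tie among 10 genes was taken in alphabetical order. Lists are thresholded, so a site without a peak was not detected at that depth and is not shown to be unbound. Alternatives covered windows, list lengths, q cuts, merging, scaling, motif limits and libraries left out.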

Additional observations from a re-analysis of the deposited data

How the results depend on the processing

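Of the 7 p53 sites, 4 were left with lists of equal length, the construction of which drops the weakest peaks. In a 50 kb window 3 CTCF sites remained, 1 of them called in all 4 libraries. Without MCF10A replicate 1 or without G12V replicate 1, 4 CTCF sites were called in all remaining libraries, and the count ranged from 2 to 4 over the libraries left out. No CTCF site matched the motif without a mismatch, and 8 did with at most 2 mismatches. The rank percentile difference of the -2.3 kb p53 site ranged from -0.39 to 1.85 over the libraries left out and was negative without MCF10A replicate 2 (-0.39) and without G12V replicate 2 (-0.28).

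The number of p53 sites passing limma depended on the scaling: 12 with median centring, 0 without centring, 39 (27 higher and 12 lower in G12V) with log2 ranks, and 67 (38 higher and 29 lower) with recovered fragments. Log2 ranks moved the median of all 332 sites by 0.29. The causes were not tested. Leaving out a library gave 0 to 17 passing sites, with 0 without either MCF10A library. For CTCF 11 sites passed with recovered fragments. The -1.4 kb difference of 0.19 was -0.14 with recovered fragments and ranged from -0.10 (without G12V replicate 2) to 0.86 over the libraries left out.

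Replicate numbers are not stated to pair the libraries, and deviations of same-numbered libraries were hardly correlated (0.02 for p53, 0.05 for CTCF). A correlation over sites cannot register a shift that moves every site of a library together. For CTCF, each replicate 2 library had higher median fragments per M reads than either replicate 1 library. Calls restricted to the replicate 2 pair made up 19.1% of CTCF sites. With a replicate block 0 p53 sites passed, the -11.5 kb site having an adjusted p of 0.273. In the other alternatives no call at a named site changed, apart from the -11.5 kb site, which passed with log2 ranks and with recovered fragments. Only 2 libraries per group, read depths from 9.26 to 33.2 M, and lists cut at a q-value by the caller limit what can be seen: the exact test could not reach the threshold, and at several weak p53 sites fewer fragments were expected than the caller needed in libraries without a peak.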

Other observations

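No further p53 site was called between 100 and 200 kb from the CDKN1A gene body. In the same range 3 CTCF sites were called, all downstream, at 172.6 kb (both replicate 2 libraries), 195.1 kb (MCF10A replicate 2 only) and 207 kb (every library but G12V replicate 1) from the canonical start.

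With the core C and G of both half-sites required, the -1.4 kb p53 site had neither a full motif nor a pair of half-sites with a spacer of up to 13 bp and at most 3 mismatches, although it was called in all 4 libraries. Of the 332 p53 sites called in all 4 libraries, 88.9% held a full motif. That result rests on the core rule. With mismatches allowed at any base, an alternative chosen after seeing the data, the -1.4 kb site held an adjacent pair of half-sites with 2 mismatches, 1 of them at a core base. A pair with at most 3 mismatches at any base was found at 94.0% of the 332 sites and 1.73% of protein-coding promoters.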
